A study of Arabidopsis thaliana with 6 samples.

Results

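Genes of phosphate transport and phosphate starvation, 10 of the 33602 genes counted in each library, were followed in Arabidopsis roots treated with cytokinin. They were listed by locus, with earlier results of these data known. The 10 are 6 genes of the PHT1 family of phosphate uptake transporters, PHT1;1 (AT5G43350), PHT1;2 (AT5G43370), PHT1;3 (AT5G43360), PHT1;4 (AT2G38940), PHT1;8 (AT1G20860) and PHT1;9 (AT1G76430), the phosphate exporter PHO1 (AT3G23430), the ubiquitin-conjugating enzyme PHO2 (AT2G33770), and the SPX-domain proteins SPX1 (AT5G20150) and SPX3 (AT2G45130). All 6 libraries came from the ipt1,3,5,7 mutant, in which 4 isopentenyltransferase genes of cytokinin synthesis are mutated and which therefore makes little cytokinin of its own. Primary roots of 7-d-old plants were collected without root tips and lateral roots, and their total RNA was sequenced. The DMSO group (3 libraries) was harvested 1 h after transfer to medium with the solvent dimethyl sulfoxide. The BAP group (3 libraries) was harvested 4 h after transfer to 1 µM 6-benzylaminopurine, a synthetic cytokinin. Treatment and time since transfer changed together, so their effects cannot be told apart, and no wild-type library was used here.

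Plant roots take up inorganic phosphate through PHT1 proteins, proton-coupled transporters of the plasma membrane of epidermis, root hairs and cortex. PHO1 acts in the stele, where it moves phosphate towards the xylem for transport to the shoot. PHO2 promotes the breakdown of PHT1 and PHO1 proteins, and its own transcript is cleaved under phosphate shortage by the microRNA miR399. The transcription factor PHR1 switches on starvation genes through the promoter element P1BS, and SPX proteins bind PHR1 and hold it back when phosphate is plentiful. SPX1 and SPX3 are themselves starvation-induced targets of PHR1, so their transcripts are widely used as a readout of phosphate shortage.

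The first set of sequences shows how alike the copies in 1 chromosomal cluster are, because that bears on how their reads can be told apart. PHT1;1, PHT1;3 and PHT1;2 lie within 18 kb on chromosome 5, from base 17399789 to 17417798 (coordinates of the deposited files, counted from 1), with the first on the minus strand and the other 2 on the plus strand, and are called the PHT1 cluster here. The first 30 bases of their coding sequences, taken from RefSeq (TAIR10.1), are printed in lower case, with bases that differ from the first in capitals.
AT5G43350: atggccgaacaacaactaggagtgctaaag
AT5G43370: atggcTgaacaacaactaggagtgctaaag
AT5G43360: atggccgaTcaacaGctaggagtgctaaag
Over the whole coding sequence, PHT1;1 was identical to PHT1;2 at 97.7% of 1575 aligned bases and to PHT1;3 at 90.0% of 1566. Of the 50-base words in their exons, 42.5%, 45.6% and 1.36% respectively also occurred in another gene, against 0 for the other 7 members. The sources used here do not give how reads with several matches were treated, so counts of the first 2 genes may be split or too low. The closest relative of PHT1;4 in the family was PHT1;7 (82.1% identity), and PHT1;8 and PHT1;9 were closest to each other (79.0%). Their coding identity to PHT1;1 was 71.7%, 62.4% and 61.8% in this order. No member overlapped another gene in the files.

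The next set shows P1BS, the element through which PHR1 acts on starvation genes, and regulation of the members by PHR1 was not tested. P1BS was searched as GNATATNC, which reads the same on both strands, in the 1000 bases before the RefSeq start of each gene. It occurred before 7 of the 10 members, 10 times in all, and before 20.3% of 26711 protein-coding genes. The element nearest to the gene start is shown for each of the 7 (the PHT1 cluster and PHT1;8 by locus) in a 30-base window in the direction of the gene, with the element in capitals (TAIR10.1).
AT5G43350, chr5:17402908-17402937, minus strand: ctatgtttttcGAATATGCttttttaaaat
AT5G43370, chr5:17415645-17415674, plus strand: aatataaatatGGATATACccttaagattc
AT5G43360, chr5:17409120-17409149, plus strand: aaataaaatgtGGATATACccttaagattc
AT1G20860, chr1:7259410-7259439, minus strand: gtgttcgagatGAATATCCggaagctgtgt
PHO2, chr2:14283621-14283650, minus strand: aacgaattaacGTATATCCttttttttttt
SPX1, chr5:6801536-6801565, plus strand: tttcctatcaaGAATATTCcatggaatcca
SPX3, chr2:18606309-18606338, plus strand: gctaaagctaaGCATATCCgctttcatatt
The windows of AT5G43370 and AT5G43360, neighbouring copies of the cluster, were identical over their last 20 bases, the element included, and the element stood 34 and 385 bases before the respective gene start. PHT1;4, PHT1;9 and PHO1 had no match in this window. A match is a run of letters and not a measured binding site.

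The third set concerns PHO2, whose leader is the known target of miR399. The mature sequences of 2 of the 6 family members, read from the genome at their RefSeq positions with the seed (bases 2 to 8) in capitals, are followed by the stretches of PHO2 exon sequence within 3 mismatches of a miR399, with mismatches in capitals.
miR399a, chr1:10227165-10227185, plus strand: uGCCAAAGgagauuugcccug
miR399f, chr2:14445084-14445104, plus strand: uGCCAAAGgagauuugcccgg
PHO2 site, chr2:14282106-14282126, minus strand: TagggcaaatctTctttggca
PHO2 site, chr2:14281973-14281993, minus strand: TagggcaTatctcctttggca
PHO2 site, chr2:14281884-14281904, minus strand: TTgggcaaatctcctttggca
PHO2 site, chr2:14281827-14281847, minus strand: TcgAgcaaatctcctttggca
PHO2 site, chr2:14281770-14281790, minus strand: TagAgcaaatctcctttggca
All 5 sites lay upstream of the PHO2 coding start, each had 2 mismatches, and 4 of the 5 matched miR399a at least as well as any other family member. The mature sequences from the 6 precursors, with the 3p arm for miR399c, shared 1 seed, and the 5p arm of miR399c was not used. The files listed 0 reads for each of the 6 MIR399 precursor genes in every library, where a count of 0 allows up to 3 counts, or 0.144 to 0.157 CPM (counts scaled to libraries of 1e6). The RefSeq exons of these genes are only 100 to 135 bases long, so a count of 0 does not show that the precursors were absent. Mature microRNAs are too short for this kind of library, so miR399 itself was not measured.

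The libraries held 19957748 to 20127269 counts each, with 24197 to 24516 genes detected. Over all genes tested, 2425 were called higher and 2384 lower in BAP. The 6 type-A response regulators used as cytokinin markers were all called higher, with summed levels of 73.5 to 84.2 CPM in DMSO and 629 to 734 CPM in BAP. Markers of root hair (7 genes), endodermis (7) and stele (7) were all detected. Stele markers summed to 478 to 630 CPM in DMSO and 591 to 720 CPM in BAP, with SKOR called lower (log2 fold change -4.96) and AHK4 (1.95) and SUC2 (1.07) higher. Endodermis markers summed to 80.6 to 118 CPM and 86.6 to 128 CPM, with CASP5 (-1.69) and MYB36 (-0.63) called lower and CASP4 (1.1) and CASP2 (0.67) higher. Photosynthesis markers of the shoot (5 genes) summed to 31.5 to 39.1 CPM in DMSO and 38.6 to 73.3 CPM in BAP, with the highest value in BAP library 3. Root tip markers (5 genes) summed to 28.2 to 32.5 CPM in DMSO and 19.2 to 26.6 CPM in BAP, with WOX5 (-1.92) and PLT2 (-0.58) called lower and 0 higher. Lateral root markers (5 genes) summed to 34.5 to 36.3 CPM and 7.09 to 7.76 CPM, and all 5 were called lower. Neither set was thus absent from roots harvested without these parts. Root hair markers summed to 183, 59.0 and 106 CPM in DMSO libraries 1, 2 and 3 and to 148 to 193 CPM in BAP. Of 9 clock genes, 5 were called higher and 3 lower. The part of these differences in the phosphate genes was not tested, and in bulk roots fewer cells of a type and less RNA per cell cannot be told apart.

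Of the 10 members, 9 had enough reads to be tested, and all 9 had lower estimated levels in BAP. The 6 called lower were PHT1;4, PHT1;8, PHT1;9, PHO1, PHO2 and SPX1, and 0 were called higher, since no estimate was above 0. Calls needed both an adjusted p no higher than 0.05 (edgeR quasi-likelihood F test, Benjamini-Hochberg adjustment over 20987 genes) and a change of 0.5 or more on the log2 scale. By this rule 11.4% of all genes tested were called lower and 11.6% higher. Without the fold minimum all 9 tested members passed as lower, against 19.4% of genes, and in all 9 the DMSO and BAP libraries did not overlap, against 26.6% of genes that were lower without overlap. The median log2 fold change of the 9 was -1.45, and that of all genes tested was 0.00. The calls made on the 6 genes held in each of the 12 fits, which include each library left out in turn.

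**Figure D1:**
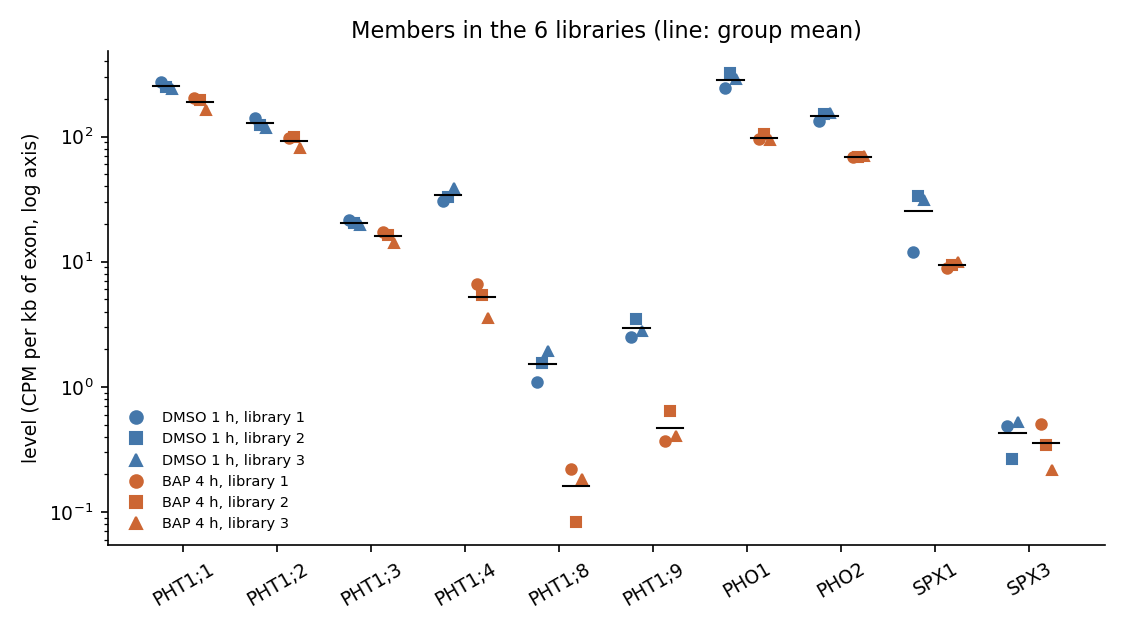
Level of each of the 10 members in each library, as CPM per kb of exon on a log axis, with DMSO 1 h in blue, BAP 4 h in orange, and a black line at each group mean. PHO1 and PHT1;1 had the highest means in DMSO (283 and 254), while SPX3 had the lowest mean in DMSO (0.424).

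Uptake transporters were examined first. PHT1;1, the main phosphate uptake transporter of roots, stood at 551, 501 and 479 CPM after DMSO and at 408, 394 and 330 CPM after BAP. The groups did not overlap. Its log2 fold change was -0.44 ± 0.10 (SE, n = 3 per group, edgeR adjusted p = 0.00939), below the fold minimum, so it was not called.

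PHT1;2, its near-identical neighbour, was at 262, 234 and 221 CPM in DMSO and 182, 184 and 152 CPM in BAP. PHT1;3, the last copy in the cluster, was at 33.8, 31.8 and 30.9 CPM and at 27.3, 25.8 and 22.2 CPM. In both genes every BAP library was below every DMSO library, with log2 fold changes of -0.47 ± 0.10 and -0.36 ± 0.09 (SE, edgeR adjusted p = 0.00624 and 0.0141). Neither reached the fold minimum in the full fit, although the first of them passed it when DMSO library 3 (-0.54), BAP library 1 (-0.51) or BAP library 2 (-0.52) was left out.

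Because reads may be split among these copies, their counts were also added up and tested as 1 gene. The sum was 847, 766 and 731 CPM in DMSO and 617, 604 and 504 CPM in BAP, again without overlap. Its log2 fold change was -0.44 ± 0.10 (SE, edgeR adjusted p = 0.0102), or 73.6% of the DMSO level. Leaving out DMSO library 3 moved it to -0.51, past the fold minimum. The log2 ratio of counts between the first 2 copies was 1.1 ± 0.02 (SD, n = 3) in DMSO and 1.13 ± 0.04 in BAP, a difference of 0.03 on the log2 scale (two-sided exact permutation test, p = 0.40, adjusted over 4 ratios 0.40). That of PHT1;1 to PHT1;3 was 3.99 ± 0.04 in DMSO and 3.91 ± 0.02 in BAP. It differed by -0.08 without overlap (two-sided exact permutation p = 0.10, the smallest possible, adjusted 0.133).

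PHT1;4, which takes up phosphate in roots together with PHT1;1, had a much larger difference. It was at 61.4, 65.6 and 77.3 CPM in DMSO and at 13.3, 10.8 and 7.04 CPM in BAP. All 3 BAP libraries held between 10.3% and 19.5% of the DMSO mean. The log2 fold change was -2.71 ± 0.20 (SE, edgeR adjusted p = 1.97e-05), a 6.57-fold lower level. Within each library, PHT1;1 had 6.20 to 8.97 counts for each of its counts in DMSO and 30.7 to 46.9 in BAP. This ratio differed by 2.32 on the log2 scale without overlap (two-sided exact permutation p = 0.10, the smallest that 3 against 3 allows, adjusted 0.133). The gene made up 6.69% to 9.40% of all PHT1 counts in DMSO and 1.37% to 2.1% in BAP.

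The transcripts of the paralogous pair PHT1;8 and PHT1;9, which also take part in root uptake, were scarce. The former had 42, 61 and 76 counts in DMSO and 8, 3 and 7 counts in BAP. The BAP counts summed to 18 and the DMSO counts to 179, a ratio of 0.106 (95% interval 0.0615 to 0.173, exact binomial, counting error only). Its log2 fold change of -3.21 ± 0.36 (SE, edgeR adjusted p = 0.00021) was the largest in size among the members. PHT1;9 had 100, 143 and 115 reads after DMSO and 14, 24 and 16 after BAP. It fell by 2.64 ± 0.24 on the log2 scale (SE, edgeR adjusted p = 6.11e-05), to 16.0% of the DMSO level. Its 3 BAP libraries thus lay far below the lowest DMSO library, as did those of its paralog.

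**Figure D2:**
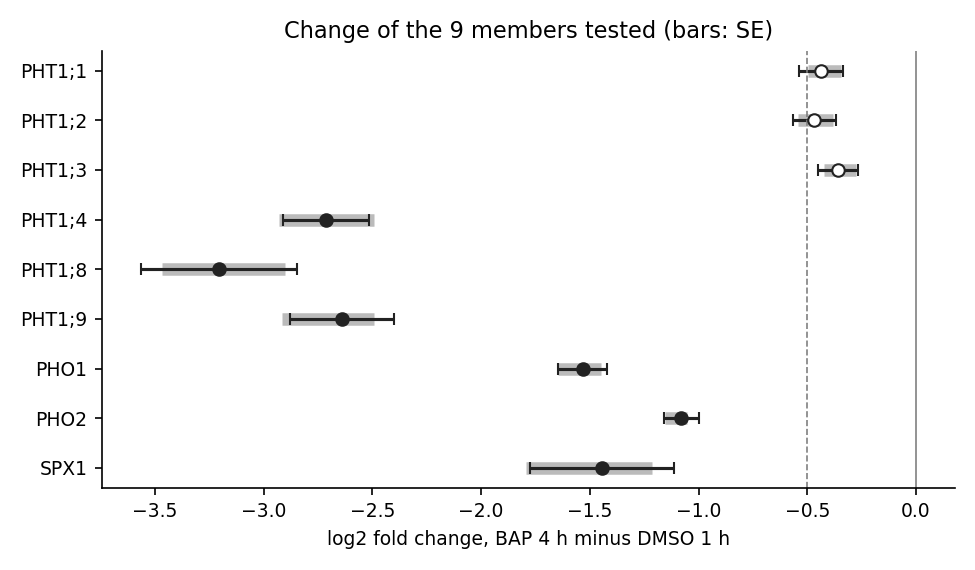
Log2 fold change of the 9 members tested, BAP 4 h minus DMSO 1 h, with SE as error bars, filled points for called genes, open points for genes not called, a dashed line at the fold minimum of -0.5, and grey bars for the range over fits that each leave out 1 library. The 3 uptake transporters called lower lay between -3.21 and -2.64, and the 3 genes of the PHT1 cluster between -0.47 and -0.36.

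PHO1, which loads phosphate into the xylem, was among the most abundant members. It was at 726, 960 and 856 CPM in DMSO and at 286, 314 and 279 CPM in BAP. The BAP libraries were tightly grouped, while DMSO library 1 was lower than the other 2 but above every BAP library. PHO1 fell by 1.53 ± 0.11 on the log2 scale (SE, edgeR adjusted p = 2.25e-05), to 34.6% of the DMSO level. Among the stele markers, the xylem-loading potassium channel SKOR was lower and AHK4 and SUC2 were higher, and the part of such differences in the level of PHO1 was not tested.

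PHO2, which limits PHT1 and PHO1 protein, was lower as well. Its levels were 553, 628 and 642 CPM in DMSO and 287, 285 and 290 CPM in BAP. The 3 BAP libraries differed little from each other (SD 2.50 CPM), and the groups did not overlap. Its log2 fold change was -1.08 ± 0.08 (SE, edgeR adjusted p = 2.38e-05), or 47.3% of the DMSO level. The transcript of the exporter and that of its negative regulator were thus both lower. The log2 ratio of PHO1 to PHO2 counts was 0.47 ± 0.12 (SD, n = 3) in DMSO and 0.02 ± 0.10 in BAP, a difference of -0.45 (two-sided exact permutation p = 0.10, the smallest possible, adjusted 0.133).

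SPX1 had 1 DMSO library that stood apart. It was at 14.4 CPM in DMSO library 1, at 40.4 and 37.5 CPM in DMSO libraries 2 and 3, and at 10.7, 11.3 and 11.9 CPM in BAP. DMSO library 1 was thus at 46.8% of the group mean and near the BAP libraries, although the groups did not overlap. The log2 fold change was -1.45 ± 0.33 (SE, edgeR adjusted p = 0.00912), and without DMSO library 1 it was -1.80 (adjusted p = 9.66e-06).

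SPX3 was close to the limit of detection. It had 9, 5 and 10 counts in DMSO and 9, 6 and 4 counts in BAP, too few to pass the filter on low counts. The groups overlapped, and the ratio of the summed counts was 0.836 (95% interval 0.433 to 1.59, exact binomial, counting error only). Neither a lower nor a higher level could be told at this depth. With no filter beyond 1 read, its log2 fold change was -0.26 ± 0.47 (SE, edgeR adjusted p = 0.712).

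**Figure D3:**
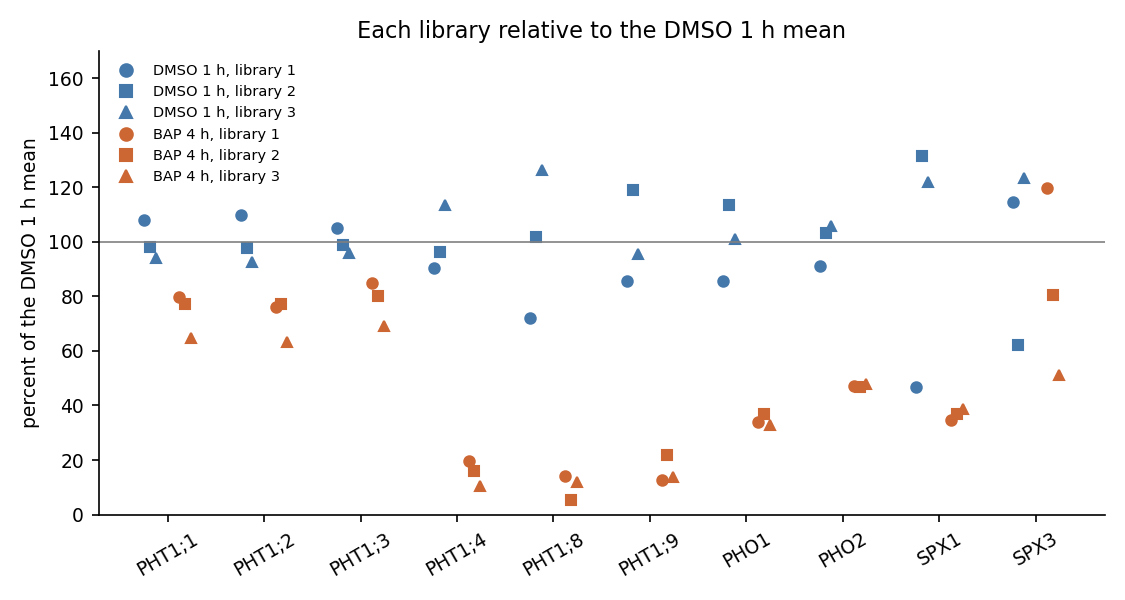
Level of each member in each library as a percentage of its DMSO 1 h mean (grey line at 100), DMSO in blue and BAP in orange. BAP libraries of the 3 uptake transporters called lower lay between 5.43% and 21.7%, those of PHO2 between 46.9% and 47.8%, and SPX1 in DMSO library 1 was at 46.8%.

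The DMSO libraries did not rank the members alike. DMSO library 1 was the lowest of the 3 for 6 of the 9 members tested (the same 6 that were called lower), and the highest for the 3 genes of the PHT1 cluster. Over all genes tested it was the lowest for 34.2%. The same library had the highest root hair marker sum of the DMSO group (183 CPM), and the part of this in the members' levels was not tested. Without DMSO library 1 the same number of members, 6, was called lower, and without BAP library 3, the one with the highest photosynthesis marker sum, 6 were too.

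Levels were ordered after division by exon length. In DMSO, PHO1 had 283 ± 39.2 (SD, n = 3) CPM per kb, followed by PHT1;1 (254 ± 18.3), PHO2 (146 ± 11.4), PHT1;2 (128 ± 11.3), PHT1;4 (34.1 ± 4.10), SPX1 (25.5 ± 11.8), PHT1;3 (20.5 ± 0.965), PHT1;9 (2.94 ± 0.507), PHT1;8 (1.53 ± 0.416) and SPX3 (0.424 ± 0.141). The library ranges of neighbours overlapped for PHO1 and the gene after it, for PHO2 and the gene after it, and for SPX1 with the genes on either side of it. In BAP the order was PHT1;1 (188 ± 20.6), PHO1 (97.8 ± 6.21), PHT1;2 (92.2 ± 9.77), PHO2 (68.9 ± 0.600), PHT1;3 (16.0 ± 1.66), SPX1 (9.36 ± 0.524), PHT1;4 (5.20 ± 1.58), PHT1;9 (0.471 ± 0.146), SPX3 (0.356 ± 0.146) and PHT1;8 (0.162 ± 0.0708). There PHO1 overlapped the gene after it, and SPX3 overlapped the genes on either side of it. PHT1;4 was thus above PHT1;3 in every DMSO library and below it in every BAP library. When only positions whose 50-base word is in no other gene were counted as length, AT5G43350 rather than PHO1 came first in DMSO, and AT5G43370 moved above PHO2 in DMSO and above PHO1 in BAP. All counts of a gene were kept in this division. It therefore puts these 2 genes too high if reads from shared positions were counted, which the sources used here do not give.

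Beside the members, 82 further phosphate genes in 4 lists were examined. Of 70 tested, 20 were called lower and 7 higher, or 28.6% and 10%. The shares over all genes tested were 11.4% lower and 11.6% higher. The median log2 fold change of the 70 was -0.15. Of the 12 not tested, 7 had no read in any library, among them PHT1;6. PHT1;5, a transporter that moves phosphate between organs, had 7, 8 and 8 reads after DMSO and 6, 5 and 4 after BAP.

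Other phosphate transport genes at the plasma membrane, vacuole and in the PHO1 family (17 genes, 15 tested) had 9 called lower (60%) and 0 higher. Over all genes tested, 11.4% were called lower and 11.6% higher. The median log2 fold change of the list was -0.78. PHT1;7, the closest relative of PHT1;4, had 53, 74 and 83 reads after DMSO and 13, 11 and 6 after BAP. It fell by 2.71 ± 0.30 on the log2 scale (SE, edgeR adjusted p = 0.000194), an estimate equal to that of its relative within the SE. PHO1;H1, which shares the xylem-loading role of PHO1, was at 114, 130 and 104 CPM in DMSO and 37.4, 46.2 and 36.9 CPM in BAP. Its log2 fold change of -1.53 ± 0.11 (SE, adjusted p = 2.35e-05) was also equal to that of PHO1 within the SE.

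Of the 10 homologs of PHO1 in the EXS family, 6 were called lower and 4 were not called. The 4 (AT1G14040, AT2G03240, AT2G03250 and AT1G26730) had log2 fold changes from -0.08 to 0.58, with 3 of them above 0. The calls on AT2G03260 and AT3G29060 among the 6 were lost in some alternative fits. SHB1 (AT4G25350), known in light signalling and seed size, was at 9.51, 11.4 and 7.05 CPM in DMSO and 3.83, 2.77 and 2.1 CPM in BAP (log2 fold change -1.69 ± 0.24, adjusted p = 0.00088). AT1G69480, annotated as an EXS family protein, was at 11.7, 12 and 11.3 CPM and at 3.98, 4.02 and 3.89 CPM (log2 fold change -1.55 ± 0.10, adjusted p = 1.04e-05). Neither gene overlapped between groups. PHF1, which PHT1 proteins need to leave the endoplasmic reticulum, was at 36.5, 41.5 and 47.8 CPM in DMSO and 36.7, 32.8 and 29.5 CPM in BAP, so its groups overlapped and it was not called (-0.35 ± 0.12, adjusted p = 0.0444).

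Phosphate carriers of plastids, mitochondria and Golgi (10 genes, all tested) differed in direction, with 4 called higher (40%), 0 lower and a median log2 fold change of 0.19. Over all genes tested, 11.6% were called higher and 11.4% lower. PHT4;2, a plastid phosphate transporter of roots, was at 6.19, 5.69 and 6.09 CPM in DMSO and 16.6, 18.5 and 16.8 CPM in BAP. It rose by 1.53 ± 0.09 on the log2 scale (SE, edgeR adjusted p = 8.31e-06), without overlap. PHT4;4 (AT4G00370, a chloroplast carrier) rose by 0.92 ± 0.10, PHT2;1 (the chloroplast phosphate transporter) by 0.58 ± 0.09 and PHT4;6 (a Golgi transporter) by 0.54 ± 0.09 (adjusted p = 0.000223, 0.00139 and 0.00178). The last of these calls was lost without DMSO library 2 (lowest estimate 0.46). AT4G00370 overlaps a neighbouring gene that was not called, and strand use in counting is not given in the sources used here.

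**Figure D4:**
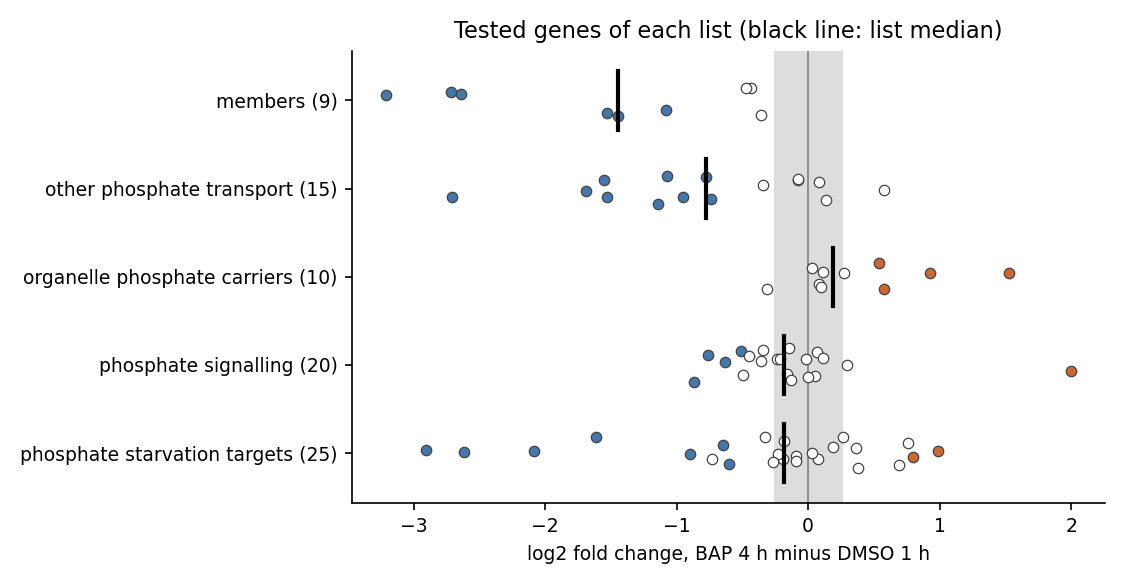
Log2 fold change (BAP 4 h minus DMSO 1 h) of the tested genes of each list, with the number tested in parentheses, blue for called lower, orange for called higher, white for not called, a black line at each list median, and a grey band between the quartiles of all genes tested (-0.25 and 0.26). Members and other transport genes lay mostly left of the band (medians -1.45 and -0.78) and the organelle carriers mostly within or right of it, except PHT3;2 at -0.31.

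Phosphate signalling genes (28 genes, 20 tested) had 4 called lower (20%) and 1 higher (5%), with a median of -0.19. Over all genes tested, 11.4% were called lower and 11.6% higher. PHR1, the master regulator of the starvation response, was at 46.6, 48.3 and 45.2 CPM in DMSO and 36.8, 41.1 and 41.0 CPM in BAP, a log2 fold change of -0.24 ± 0.07 below the fold minimum (adjusted p = 0.0289). SPX2 was at 20.1, 27.2 and 28.6 CPM and at 17.3, 18.2 and 20.1 CPM (-0.45 ± 0.14, adjusted p = 0.0299), with overlap of the groups, and SPX4 differed by -0.13 ± 0.18 (adjusted p = 0.615). SPX2, like SPX1, was lowest in DMSO library 1 among the DMSO libraries, and it passed the fold minimum without that library or without BAP library 3.

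The decoy RNAs that sequester miR399 were not called. IPS1 had 35, 18 and 39 reads after DMSO and 27, 19 and 22 after BAP (log2 fold change -0.36 ± 0.32, adjusted p = 0.409). AT4 (AT5G03545) was at 19.9, 20.2 and 25.7 CPM in DMSO and 16.6, 15.4 and 14.8 CPM in BAP, without overlap (-0.49 ± 0.11, adjusted p = 0.00928), and was just under the fold minimum. It was past it in 4 of the 12 fits.

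Some of the called genes of the signalling list are known to act on PHO1 or PHT1. WRKY42, a transcription factor known to repress PHO1 and to activate PHT1;1, was at 6.78, 5.11 and 5.85 CPM in DMSO and 25.9, 24.9 and 20 CPM in BAP, so that it rose by 2.0 ± 0.14 on the log2 scale (SE, edgeR adjusted p = 1.6e-05). WRKY6, another known repressor of PHO1, was at 106, 156 and 118 CPM and at 79.8, 90.4 and 75.5 CPM (-0.63 ± 0.14, adjusted p = 0.00779), and its call was lost without DMSO library 2. These 2 repressors thus moved in opposite directions. NLA, a ubiquitin ligase that removes PHT1 proteins from the membrane, was at 30.8, 32.9 and 28.6 CPM and at 18, 18.8 and 17.5 CPM (-0.77 ± 0.08, adjusted p = 0.000141). It overlaps a gene that was not called.

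LPR2, a ferroxidase-like protein of root growth under low phosphate, was also lower. It was at 34.3, 25.0 and 30.1 CPM in DMSO and 15.1, 15.7 and 18.1 CPM in BAP (-0.87 ± 0.13, adjusted p = 0.000893). PHL2 (AT3G24120), annotated as a homeodomain-like protein, was at 20.5, 17.4 and 17.3 CPM and at 13.1, 11.2 and 14.3 CPM (-0.51 ± 0.12, adjusted p = 0.0084). PHL2 dropped below the fold minimum with upper-quartile scaling and without DMSO library 1 or BAP library 2.

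Phosphate starvation targets, which code for lipid remodelling, phosphatase and phosphate-saving enzymes (27 genes, 25 tested), had 7 called lower (28%) and 2 higher (8%). Over all genes tested, 11.4% were called lower and 11.6% higher. The median of the list was -0.18. The number called higher was 0 without DMSO library 2 or BAP library 3, 1 without DMSO library 1, DMSO library 3 or BAP library 2, and 4 with the replicate number as a block. PPCK1, a kinase that activates phosphoenolpyruvate carboxylase, was at 154, 218 and 140 CPM in DMSO and 25.9, 22.3 and 20.0 CPM in BAP. It fell by 2.91 ± 0.18 on the log2 scale (SE, edgeR adjusted p = 8.27e-06). Of the 50-base words in its exons, 20.9% also occurred in AT1G08645, so its reads may not be fully separable. PPCK2, the paralog of PPCK1, was at 22.4, 30.4 and 22.7 CPM and at 4.61, 4.02 and 3.69 CPM (-2.61 ± 0.15, adjusted p = 6.96e-06). The changes of these 2 kinases were of the size seen for the 3 uptake transporters called lower.

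PAP17, a purple acid phosphatase used as a starvation marker, was at 17.1, 56.1 and 40.6 CPM in DMSO and 8.59, 10.5 and 7.68 CPM in BAP (-2.09 ± 0.38, adjusted p = 0.00297). As for SPX1, DMSO library 1 was the lowest of its group. PAP17 overlaps AT3G17800, which was called lower itself (-0.54), and their reads may not be separable. G3PP1 (AT3G47420), a glycerol-3-phosphate permease homolog, was at 113, 183 and 146 CPM and at 43.4, 55.5 and 45.2 CPM (-1.62 ± 0.17, adjusted p = 0.00016). NPC4, a phospholipase C that degrades phospholipids under starvation, went the other way, from 13.0, 12.2 and 16.5 CPM to 17.3, 21.3 and 34.0 CPM (0.80 ± 0.24, adjusted p = 0.027), and its call was lost without DMSO library 1 or 2 or BAP library 3. The other target called higher, GDPD3, had a mean under 1 CPM.

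P1BS matches were set beside the calls, as a description. The element stood before 3 of the 6 members called lower (PHT1;8, PHO2 and SPX1), before all 3 genes of the PHT1 cluster, which were not called, and before SPX3, which was not tested. In the other lists it stood before 14 of 27 starvation targets (51.9%), 9 of 21 signalling genes that RefSeq lists as protein-coding, IPS1 and AT4 among them (42.9%), 5 of 17 other transport genes (29.4%) and 3 of 10 organelle carriers (30%), against 20.3% of all protein-coding genes. The MIR399 genes and MIR827 of the signalling list, left out of that count as not protein-coding, each had at least 1 match.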

How the data were processed

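The members, the gene lists and the tests were chosen with earlier results of these data known. After trimming, the authors aligned the reads with Bowtie2, tallied them by gene with HTSeq and deposited the raw read counts, 1 file per library and with no normalization (build TAIR10, FastQC for quality control, per the submitters' processing notes). Program versions, strand use and the handling of reads with several matches are not given in the sources used here. The files list 33602 genes and no unassigned reads. Groups came from the sample titles.

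From the counts, edgeR 4.0.16 in R 4.3.3 gave the results: filterByExpr (minimum count 10, total 15) kept 20987 genes, TMM scaled the libraries, and the quasi-likelihood F test compared BAP with DMSO by treatment alone. An SE was taken as the absolute log2 fold change over √F, and CPM uses TMM-scaled totals. The study describes the libraries as biological replicates, and p-values measure the spread between these samples. Intervals and zero limits cover counting error only. Replicates of a group differed by more than sampling noise (chi-square per degree of freedom 7.94 to 12.4), so each counted as 1 sample. Other genes are named where they were called, averaged 1 CPM or more and had groups that did not overlap, up to 4 per direction and list, besides 9 fixed names. Sequences, exon lengths and P1BS came from RefSeq TAIR10.1, in which 32831 of 32835 shared gene identifiers lay at overlapping positions on the same strand as in the files. Coding sequences were aligned with Biopython 1.88. The fits were tested on simulated data. Alternatives were DESeq2 1.42.0, its size factors, upper-quartile scaling, no filter beyond 1 read, the replicate number as a block, each library left out, and other fold minimums.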

Additional observations from a re-analysis of the deposited data

How the results depend on the processing

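Each of the 6 called members was lower and past the threshold in every one of the 12 fits. With 1 library left out, the log2 fold changes ranged from -0.54 to -0.38 for PHT1;2, from -0.50 to -0.35 and -0.42 to -0.28 for the other 2 cluster genes, from -0.51 to -0.35 for the cluster sum, from -2.93 to -2.50 for PHT1;4, from -3.47 to -2.90 for PHT1;8, from -2.91 to -2.49 for PHT1;9, from -1.65 to -1.45 for PHO1, from -1.15 to -1.05 for PHO2 and from -1.80 to -1.21 for SPX1. PHT1;2 and the sum were past the fold minimum in some of these fits, so 6 to 7 members were called lower and 0 higher. Genes called ranged from 2200 to 2387 higher and 2107 to 2496 lower, and other phosphate genes from 4 to 7 higher (4 without DMSO library 2) and 16 to 23 lower. Without a fold minimum 3887 genes were called higher and 4061 lower, with 9 members lower and 11 other phosphate genes higher and 26 lower. With a fold minimum of 1 on the log2 scale, 1099 genes were called higher and 1072 lower, 6 members lower, and 2 other phosphate genes higher and 10 lower. With length counted over unshared words, 4 members changed rank in DMSO and 2 in BAP. DESeq2, other scaling and no filter left 6 members called lower. With the replicate number as a block, 6 members were called lower and 0 higher, and 2474 genes were called higher and 2455 lower. Same-numbered libraries correlated at 0.211, 0.0739 and 0.342 in their deviations from the group means, and libraries with different numbers at -0.32 to 0.107. By this measure 5 of 6 libraries correlated best with their own number. The main fit did not take the numbers as pairs, and the block fit above did. SPX3 was left out by the filter on low counts, and it was not called with no filter beyond 1 read either (edgeR adjusted p = 0.712).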
